A study of Sus scrofa with 6 samples.

Results

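The genes examined here encode the proteasome, its regulators and its assembly factors, in the spinal cord of pigs that lack a maternal copy of UBE3A. Members were the rows of the 6 deposited libraries named PSMA, PSMB, PSMC, PSMD, PSME, PSMF or PSMG with a number, or named ADRM1, POMP, PAAF1 or SEM1. This took 45 of the 28965 genes listed, of which 43 were tested. PSMA8, which is known mainly from testis, had 1 read in wild-type replicate 1 and none elsewhere, and PSMB11, the catalytic subunit known from thymus, had no read. A count of 0 allows up to 3 reads, which is 0.133 to 0.175 CPM (exon reads scaled to a common library size) depending on the library. PSMA1, PSMA2 and PSMD9 are listed under gene IDs only and were set beside the members with symbols from a name table. PSMB5, PSMB6, PSMG1 and SEM1 matched no row and were not analysed here.

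The tissue was cervical spinal cord, taken from 6 male pigs at 140 days of age and sequenced with a stranded mRNA kit as 1 library per animal. The wild-type group held 3 animals, and the other group held 3 animals with a deletion of UBE3A inherited from the mother. The labels do not name the size of the deletion, the breed, or whether animals shared a litter. The comparison asks which RNAs differ in the cord when the maternal UBE3A copy is lost.

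The proteasome is the barrel-shaped protease that degrades proteins tagged with ubiquitin. UBE3A is an E3 ligase, an enzyme that attaches ubiquitin to chosen proteins, and neurons express it from the maternal allele. The core particle is built of PSMA subunits in its outer rings and PSMB subunits in its inner rings, and it holds the cutting sites. The regulatory particle, made of PSMC ATPases and PSMD subunits, binds, unfolds and feeds in the tagged protein. Interferon induces PSMB8, PSMB9 and PSMB10, which replace catalytic subunits to form the immunoproteasome, and the activator subunits PSME1 and PSME2. In Drosophila, the counterpart of PSMD4 has been reported as a protein that Ube3a acts on.

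Libraries held 17181003 to 22492366 exon reads, and tested members had 88 to 7495 reads in a library. UBE3A read 57.0, 65.5 and 60.6 CPM in the wild-type animals and 21.4, 27.1 and 21.4 CPM in those with the deletion (log2 fold change -1.39; edgeR adjusted p 0.0253). The groups did not overlap, so no library went against its label. The adjusted p by edgeR was 0.0526 with the animal ID prefix (14 or 15) as a block, 0.152 without wild-type replicate 1 and 0.0728, 0.0886 and 0.0822 without deletion replicate 1, 2 or 3. Oligodendrocyte, astrocyte and neuron markers were detected, as the tissue label asks. The make-up of the libraries differed between the groups: all 14 neuron markers tested were above wild type, with summed levels of 2521 to 6708 CPM in wild type and 9477 to 19380 CPM in the deletion group, while 12 endothelium and mural cell markers summed to 791.5 to 3085 CPM and 405.1 to 553.8 CPM. The 10 fibroblast and meninges markers summed to 2487 to 3180 CPM in wild type and 403.3 to 702.9 CPM in the deletion group. In bulk RNA, fewer cells of a type and less RNA per cell cannot be told apart. Wild-type replicate 3 stood apart, with 5.98% of its reads from the mitochondrial genome where the other 5 libraries had 9.13 to 12.6%.

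Per length, proteasome genes were spread widely even within a ring whose proteins are present in equal numbers. On the TPM scale of the deposited files, which corrects for gene length, the tested PSMA genes ranged from 15.4 for PSMA4 to 275.1 for PSMA7 as means of 6 libraries. The constitutive PSMB genes ranged from 21.6 for PSMB2 to 302.2 for PSMB7, the subunit that carries the trypsin-like site. PSMB1, PSMB4 and PSMA7 lay close to PSMB7 at 287.5, 279.3 and 275.1 TPM, and PSMD4, a ubiquitin receptor of the regulatory particle, at 282.9 TPM. These values rest on the exon length the authors assigned to each gene.

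The interferon-inducible catalytic subunits lay near the low end of the core genes on the same scale, beside PSMA4 and PSMB2. PSMB10 had 18.0 TPM, PSMB8 17.9 TPM and PSMB9 8.55 TPM as means of all libraries. PSMB10 can replace PSMB7, and its TPM was 0.0773, 0.0686 and 0.0561 of that of PSMB7 in wild-type replicates 1 to 3. In deletion replicates 1 to 3 the ratio was 0.0493, 0.0529 and 0.0569, which overlaps wild type. On the TPM scale PSMB7 was thus far above PSMB10 in every library, a gap that rests in part on the exon lengths assigned. In CPM, which does not correct for length, PSMB10 read 50.2, 40.5 and 34.6 in wild type, beside 111.0, 101.0 and 105.3 for PSMB7. In the deletion group PSMB10 read 36.1, 38.0 and 35.3 CPM, beside 125.1, 122.9 and 106.0 CPM for PSMB7. PSMB5 and PSMB6, the other replaced subunits, were not analysed here. Among the other regulators, PSME4, a nuclear activator known from DNA repair and spermatogenesis, stood at 7.91 TPM, and the assembly factor PAAF1 at 7.31 TPM.

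**Figure D1:**
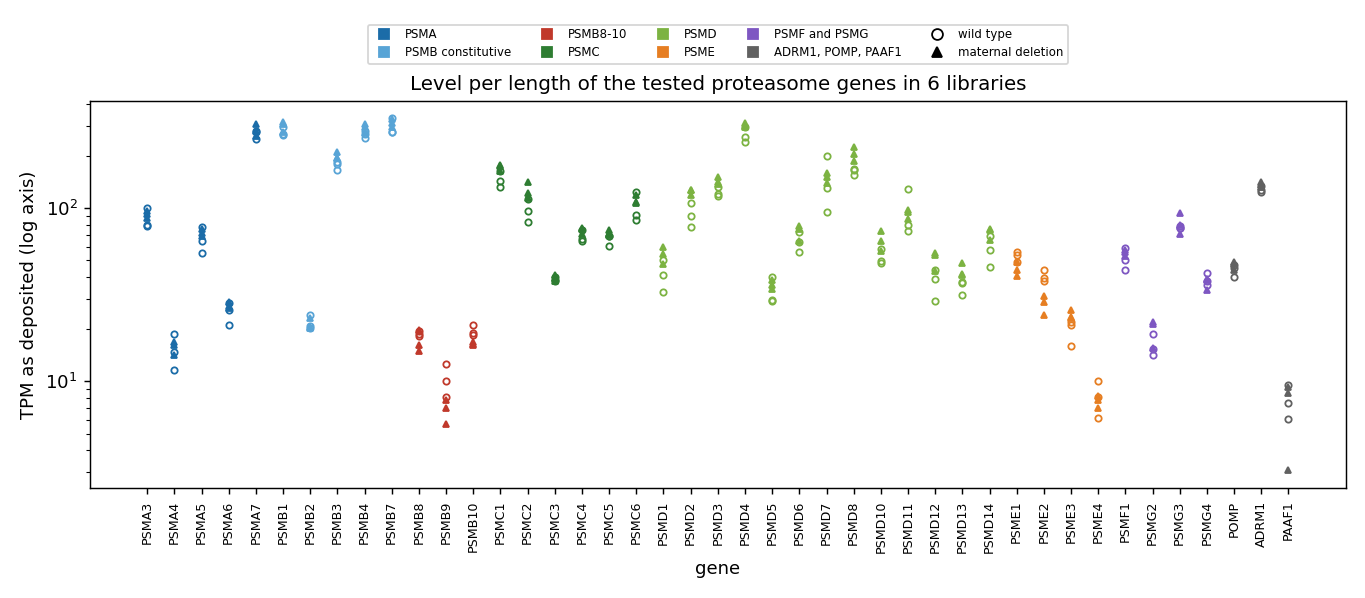
Deposited TPM (log axis) of each of the 43 tested genes, with open circles for the 3 wild-type libraries, filled triangles for the 3 deletion libraries and colours for the groups of subunits. PSMB7, PSMB1, PSMD4, PSMB4 and PSMA7 lie at the top, near 275.1 to 302.2 TPM as means, and PSMB8, PSMB9 and PSMB10 lie between 8.55 and 18.0 TPM.

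Between genotypes, most proteasome genes were modestly above wild type in the deletion group, and the interferon-inducible subunits were below it. None of the 43 tested members passed an adjusted p of 0.05, so no single gene is called changed. Over all 14566 genes tested, 1.02% passed, made up of 0.178% higher and 0.844% lower, by the quasi-likelihood test of edgeR adjusted after Benjamini and Hochberg. At an unadjusted p under 0.05, 12 members were higher and 1 was lower, against a background of 11.1% of all genes higher and 9.09% lower. DESeq2 called 2 members higher, PSMD2 and PSMD12, where it called 8.64% of all genes (3.6% higher and 5.04% lower). At an unadjusted p under 0.05 DESeq2 had 11 members higher and 1 lower, beside 6.56% and 7.36% of the 21012 genes it fitted, which include genes with few reads. Among the 14566 genes tested by edgeR, 1357 were higher at that DESeq2 threshold. Among the 10701 genes at least as abundant as the lowest member, 1162 were. Voom with quality weights called PSMD2 alone, where it called 3.01% of all genes (0.645% higher and 2.36% lower). Its unadjusted p was under 0.05 for 14 members, 12 of them higher, beside 13.1% of all genes higher and 10.8% lower. In the authors' deposited table none of the 43 members had a false discovery rate under 0.05, where 3.39% of the genes with a rate were higher and 3.81% lower.

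The median log2 fold change of the tested members, deletion over wild type, was 0.19, where all genes had 0.05 and the 10701 genes at least as abundant as the lowest member had 0.07. Positive values were seen in 36 of the 43 members and in 56.7% of all genes. The deletion libraries were all above the wild-type libraries in 20 members, or 46.5%, where 15.2% of all genes did this. All 3 were below wild type in 1 member, PSME2, where 11.2% of all genes did this. Members vary together across libraries, so these shares are descriptions of the 6 libraries and carry no test. Animal IDs start with 14 or 15, a prefix the labels do not explain. The member median was 0.14 between the single wild-type and single deletion animal of prefix 14, and 0.18 between the 2 and 2 animals of prefix 15.

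**Figure D2:**
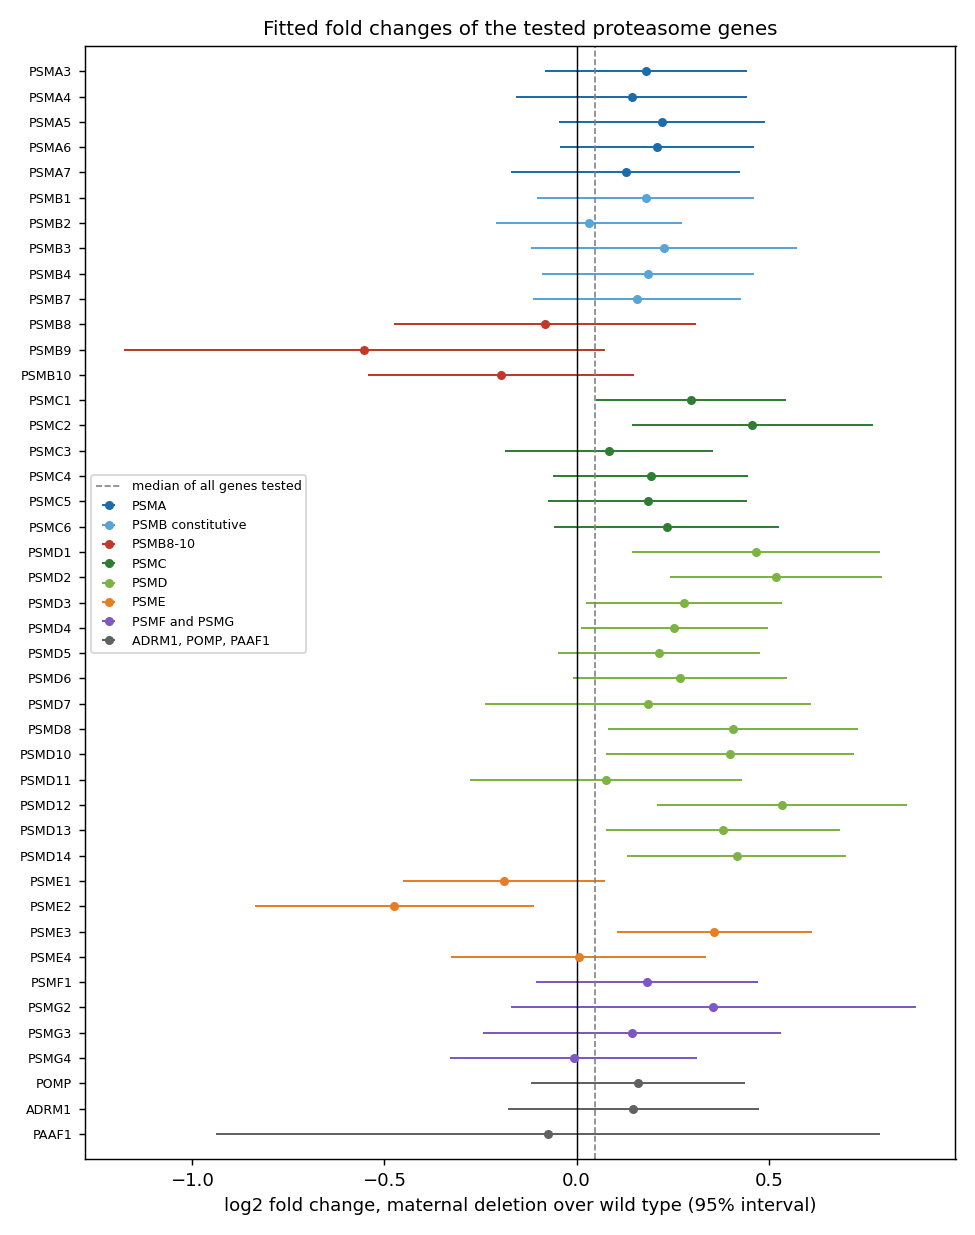
Fitted log2 fold change, maternal deletion over wild type, of each tested gene with its 95% interval, coloured by group of subunits; the solid line marks 0 and the dashed line the median of all genes tested, 0.05. All 13 PSMD and 6 PSMC genes lie to the right of 0 (under total-count scaling PSMD11 and PSMC3 would not), and PSMB8, PSMB9, PSMB10, PSME1 and PSME2 lie to the left.

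The regulatory particle held the largest positive values. All 13 PSMD genes were positive, except that PSMD11 was slightly negative under total-count and upper-quartile scaling and without wild-type replicate 1 or 2, and that PSMD7 and PSMD11 were negative among the animals of prefix 15. Their median was 0.38, and 11 of them were higher without overlap between the groups, where 15.2% of all genes were. PSMD2 (ENSSSCG00000046387), the subunit that docks ubiquitin shuttles and USP14, read 223.9, 232.0 and 240.9 CPM in wild-type replicates 1 to 3. It stood at 319.6, 355.1 and 323.8 CPM in deletion replicates 1 to 3. Every deletion library lay above every wild-type library. This is 0.52 on the log2 scale (SE 0.12, 95% interval 0.24 to 0.79; edgeR adjusted p 0.0801). The adjusted p was 0.000695 by DESeq2 and 0.0466 by voom, and the fold change ranged from 0.42 to 0.55 over all alternatives. In the authors' deposited table its fold change is 1.45 and its false discovery rate 0.0646.

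PSMD12 (ENSSSCG00000017273), a scaffold subunit of the lid, was at 40.8, 49.0 and 48.2 CPM in wild type and 57.3, 75.9 and 66.7 CPM in the deletion group. The groups did not overlap, and deletion replicate 2 was the highest library. The adjusted p was 0.0986 by edgeR, at a log2 fold change of 0.53 (SE 0.14), and 0.0369 by DESeq2. The authors' deposited table gives a fold change of 1.46 and a false discovery rate of 0.0512. For PSMD2 and PSMD12 alike, permuting the 6 libraries in an exact test, two-sided, gave p = 0.1, the smallest that 3 against 3 allows.

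PSMD1, the second large scaffold of the base beside PSMD2, stood at 67.8, 76.4 and 81.5 CPM in wild type and at 92.0, 119.9 and 99.8 CPM in the deletion group. PSMD14, the deubiquitinase that removes ubiquitin chains from the substrate, was at 27.1, 30.7 and 32.3 CPM and then at 36.6, 43.7 and 40.1 CPM. Neither gene overlapped between the groups. Their log2 fold changes were 0.47 (SE 0.14) and 0.42 (SE 0.12), with edgeR adjusted p-values of 0.122 and 0.119.

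Among the other lid subunits, PSMD8 and PSMD13 gave log2 fold changes of 0.41 and 0.38, PSMD3 gave 0.28 and PSMD6 gave 0.27, all without overlap. PSMD4, the ubiquitin receptor, gave 0.25, from 126.2 ± 3.04 CPM in wild type to 150.5 ± 5.81 CPM in the deletion group (SD, n = 3 each). The edgeR adjusted p-values of these 5 genes ran from 0.163 to 0.265. ADRM1, another ubiquitin receptor and the anchor of the deubiquitinase UCHL5, overlapped between the groups at 61.4 to 83.7 CPM in wild type and 73.5 to 84.0 CPM in the deletion group.

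PSMD7, the partner of PSMD14, and PSMD11, a lid scaffold, broke from the other PSMD genes through the wild-type libraries. In the wild-type libraries PSMD7 read 59.4, 73.8 and 98.9 CPM, and it read 89.7, 86.2 and 88.2 CPM in the deletion libraries. PSMD11 stood at 80.5, 79.3 and 111.1 CPM and then at 97.9, 93.3 and 94.4 CPM. For both genes wild-type replicate 3 was the highest of the 6 libraries and the deletion libraries lay close together. Without that replicate their log2 fold changes were 0.34 and 0.19 in place of 0.19 and 0.08.

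All 6 genes of the ATPase ring were positive, except that PSMC3 was slightly negative under total-count scaling, without wild-type replicate 3 and with a neuron marker covariate, and PSMC5 with that covariate. Their median was 0.21, and 4 were higher without overlap, where 15.2% of all genes were. PSMC2 stood at 82.2, 85.6 and 88.0 CPM in wild type and at 106.7, 137.6 and 106.7 CPM in the deletion group. PSMC2 thus had a log2 fold change of 0.46 (SE 0.13; edgeR adjusted p 0.119). PSMC1 gave 0.30 and PSMC6 0.23, while PSMC3 gave 0.08 and overlapped, at 115.0 to 139.1 CPM in wild type and 132.0 to 134.7 CPM in the deletion group. The ATPases are present as 1 ring with 1 copy of each, yet their fold changes covered a range of 0.08 to 0.46. Whether the members of the ring differ from each other in their response was not tested.

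**Figure D3:**
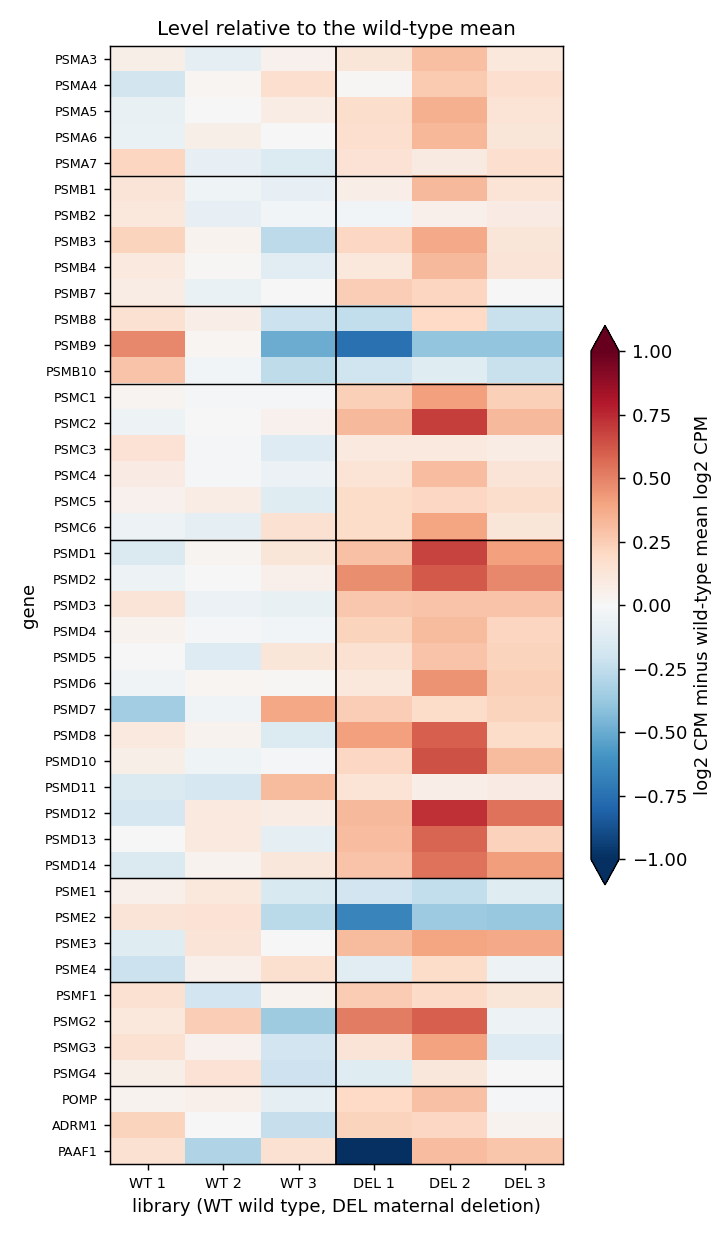
Log2 CPM of each tested gene in each library minus the wild-type mean of that gene, from blue (below) to red (above), with wild-type (WT) libraries to the left of the vertical line and deletion (DEL) libraries to the right. Of the PSMD genes 11 of 13, and of the PSMC genes 5 of 6, are highest in deletion replicate 2, PSMB9 and PSME2 are lowest in deletion replicate 1, and PAAF1 there is below the end of the colour scale.

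In the core particle, whose difference from the regulatory particle was not tested, the 5 tested PSMA genes were all positive, from 0.13 for PSMA7 to 0.22 for PSMA5, with a median of 0.18. PSMA3, PSMA5 and PSMA6 were higher without overlap between the groups, where 15.2% of all genes were. PSMA5, for example, stood at 24.4, 25.7 and 27.0 CPM in wild type and 29.0, 32.8 and 28.3 CPM in the deletion group. PSMA1, listed under its ID, gave 0.25 (SE 0.11; edgeR adjusted p 0.235) and PSMA2 gave 0.03 (SE 0.11; 0.915). A further ID is paired with PSMA6 in the name table but has no row in the files, and how reads shared with such copies were counted is not stated.

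The 5 constitutive PSMB genes tested were positive too, except that PSMB2 was slightly negative under the RLE, total-count and upper-quartile scalings, by DESeq2 and without some libraries, and that PSMB1, PSMB3 and PSMB4 were negative with a neuron marker covariate. They ran from 0.03 for PSMB2 to 0.23 for PSMB3, with a median of 0.18. PSMB4, whose yeast counterpart helps join the parts of the core, was the 1 gene of the 5 without overlap, where 15.2% of all genes were higher without overlap. It read 82.2 to 95.3 CPM in wild type and 95.7 to 111.4 CPM in the deletion group. PSMB7 stood at 111.0, 101.0 and 105.3 CPM and then at 125.1, 122.9 and 106.0 CPM, with a log2 fold change of 0.16 (SE 0.12). PSMB2 was at 52.0 ± 3.47 and 53.2 ± 1.99 CPM (SD, n = 3 each). The edgeR adjusted p-values of the PSMA and constitutive PSMB members were 0.342 or more.

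The interferon-inducible catalytic subunits were all on the negative side under each scaling, and none passed the test. PSMB9 (ENSSSCG00000001463), which replaces PSMB6, read 10.3, 7.47 and 5.23 CPM across the wild-type replicates, beside 4.39, 5.62 and 5.62 CPM across those with the deletion. Wild-type replicate 3 lay below 2 of the deletion libraries, so the groups overlapped. Its log2 value was -0.55 (SE 0.27; edgeR adjusted p 0.312). Leaving out wild-type replicate 1 gave -0.29, and leaving out wild-type replicate 3 gave -0.82. With 88 reads in its lowest library, PSMB9 had a counting error of 10.7% there.

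PSMB10 stood at 50.2, 40.5 and 34.6 CPM in wild type and at 36.1, 38.0 and 35.3 CPM in the deletion group. Wild-type replicate 1 was the highest library and the others lay together. The log2 fold change was -0.20 (SE 0.15) and was -0.04 without wild-type replicate 1. PSMB8, which replaces PSMB5, was at 21.1, 19.8 and 16.3 CPM and then at 16.0, 21.7 and 16.2 CPM, with a log2 fold change of -0.08 (SE 0.17). Of the inducible catalytic subunits it lay nearest 0, and deletion replicate 2 was its highest library.

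The activator subunits lay on both sides of 0. PSME2 (ENSSSCG00000002004), which forms the interferon-inducible activator ring together with PSME1, stood at 25.8, 26.0 and 19.6 CPM in wild type and at 14.9, 18.3 and 18.2 CPM in the deletion group. It was the only tested member with every deletion library below every wild-type library. On the log2 scale this was -0.47 (SE 0.16, 95% interval -0.84 to -0.11; edgeR adjusted p 0.150). Without wild-type replicate 3 it was -0.66 and passed, at an adjusted p of 0.0387 by the same test. In the authors' deposited table its signed fold change is -1.37 and its false discovery rate 0.234. PSME1 overlapped, at 45.9, 47.8 and 40.0 CPM in wild type and 38.9, 37.5 and 41.0 CPM in the deletion group, with a log2 fold change of -0.19 (SE 0.11).

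PSME3, the nuclear activator that works without ubiquitin, lay on the other side. It was at 37.6, 44.7 and 40.8 CPM in wild type and at 50.9, 53.7 and 53.2 CPM in the deletion group, without overlap. Its log2 fold change was 0.36 (SE 0.11; edgeR adjusted p 0.127). PSME4 was level at 26.3 ± 3.40 and 26.5 ± 2.90 CPM (SD, n = 3 each), with a log2 fold change of 0.01 that turned negative under the RLE, total-count and upper-quartile scalings.

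Ratios within a library do not depend on its scaling. The TPM of PSME2 was 2.45, 2.08 and 1.71 times that of PSME3 in wild-type replicates 1 to 3. In deletion replicates 1 to 3 it was 1.05, 1.22 and 1.22 times that of PSME3. The ratio of PSME1 to PSME3 was 3.04, 2.66 and 2.43 in wild type and 1.90, 1.73 and 1.91 in the deletion group. Neither ratio overlapped between the groups. PSME1 over PSME2 was 1.24, 1.28 and 1.42 in wild type and 1.81, 1.42 and 1.57 in the deletion group, without overlap by a narrow margin. The ratios were chosen after the values were seen and were not tested.

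**Figure D4:**
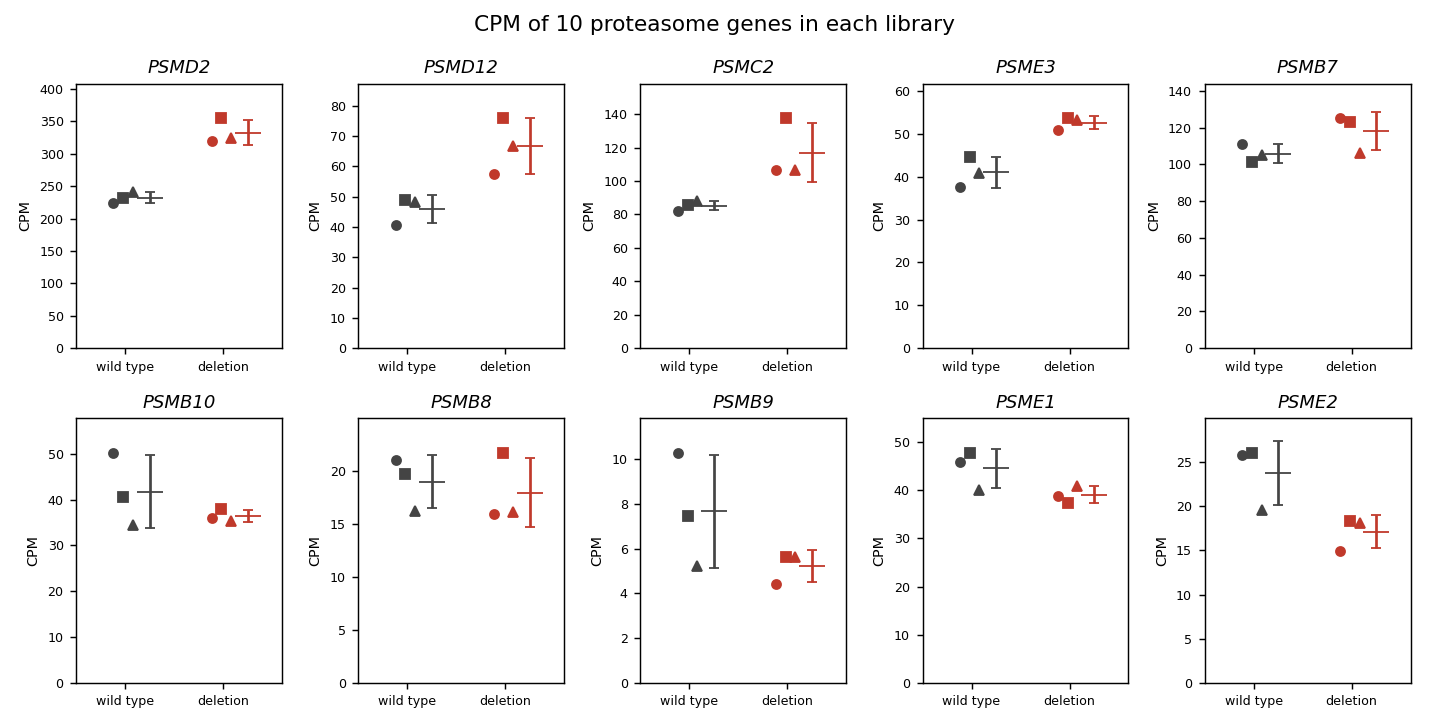
CPM of 10 proteasome genes in each library, with grey symbols for wild type and red for maternal deletion, a circle, square and triangle for replicates 1, 2 and 3, and a bar with whiskers for the mean ± SD (n = 3). PSMD2 goes from 224 to 241 CPM in wild type to 320 to 355 CPM in the deletion group, and PSME2 from 19.6 to 26.0 CPM to 14.9 to 18.3 CPM, while the groups overlap for PSMB7, PSMB8, PSMB9, PSMB10 and PSME1.

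The assembly factors and the inhibitor did not share a sign. PSMG2, PSMG3 and PSMG4, chaperones that build the outer ring of the core, gave log2 fold changes of 0.36, 0.14 and -0.01, and all overlapped. POMP, which guides maturation of the core, stood at 58.5 ± 3.12 and 65.4 ± 7.15 CPM and PSMF1, an inhibitor of the core in vitro, at 89.5 ± 10.6 and 101.6 ± 4.63 CPM (SD, n = 3 each). PSMD10 and PSMD5, chaperones of the ATPase ring that carry a PSMD name, gave 0.40 and 0.21 without overlap, and PSMD9, another such chaperone listed under its ID, gave 0.03. PAAF1, a further factor of the base, was at 19.3, 14.1 and 19.2 CPM in wild type and at 7.44, 21.5 and 21.0 CPM in the deletion group. Deletion replicate 1 alone was low for PAAF1, with 149 reads, and without it the log2 fold change was 0.28 in place of -0.07.

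The PSMD genes and the inducible subunits lay on opposite sides of 0 in each deletion library. The median log2 difference of the PSMD genes from their wild-type mean was -0.03, -0.00 and 0.05 across wild-type replicates 1 to 3, beside 0.27, 0.54 and 0.24 across deletion replicates 1 to 3. For PSMB8, PSMB9, PSMB10, PSME1 and PSME2 together it was 0.15, 0.06 and -0.26, and then -0.24, -0.25 and -0.23. Wild-type replicate 3 therefore lay with the deletion libraries for the inducible subunits and with the wild-type libraries for the PSMD genes. Deletion replicate 2 was the highest library for 30 of the 43 tested members.

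Markers of cell types differed along with these values. The median difference of the neuron markers was 0.19, 0.52 and -0.60 across the wild-type libraries, beside 0.92, 1.48 and 1.12 across the deletion libraries. Deletion replicate 2 was thus also the highest by the median of these markers, though not for every marker of the list. With the mean neuron marker level as a covariate, the median log2 fold change of the tested members was 0.09 in place of 0.19, and 27 of 43 were positive. PSMD2 kept 0.51 in that fit, at an edgeR adjusted p of 0.269, whereas PSMD13 and PSMD8 gave 0.0639 and 0.11 in place of 0.38 and 0.41. PSMB9 and PSME2 gave -1.25 and -0.96. The 11 microglia and macrophage markers, cells in which inducible subunits are known to be high, summed to 667.8 to 709.9 CPM in wild type and 614.2 to 675.2 CPM in the deletion group, with 9 of 11 negative. That sum rests mostly on CSF1R and C1QB, and the macrophage markers in the list lay much lower in the deletion group. CD163 read 7.80, 11.02 and 3.76 CPM in wild type beside 0.499, 0.997 and 1.94 CPM, and MRC1 6.69, 6.34 and 2.16 CPM beside 1.05, 0.997 and 1.99 CPM, both without overlap (edgeR adjusted p 0.0699 and 0.0984). LYVE1 fell, from 2.46, 2.78 and 1.29 CPM to 0.300, 0.210 and 0.302 CPM (log2 fold change -2.97, edgeR adjusted p 0.0441). These deletion values rest on few reads: 6, 4 and 7 for LYVE1, close to the floor of 3 reads. CD163 had 10, 19 and 45 reads there, and MRC1 21, 19 and 46. The 8 tested blood and lymphocyte markers summed to 81.7 to 227.2 CPM and 48.1 to 154.5 CPM. HBB, named although outside the naming rule, alone read 186.3 CPM in wild-type replicate 1 and 110.8 CPM in deletion replicate 2. Of the 8 markers 7 were negative, with a median log2 fold change of -1.05, and 3 were lower without overlap (11.2% of all genes). Those 3 were CD3E, with 0, 8 and 2 reads in the deletion libraries, S100A12, with 1, 9 and 3, and NKG7, with 211, 155 and 132. PTPRC and CD2 were named although outside the naming rule. PTPRC, with 306 to 680 reads in a library, overlapped at -0.17, and CD2 gave 0.06. By their median, the neuron markers were higher in every deletion library than in every wild-type library. With 6 libraries the covariate fit therefore cannot tell genotype and neuron marker level apart. The part of cell make-up in the values of the proteasome genes was not tested.

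**Figure D5:**
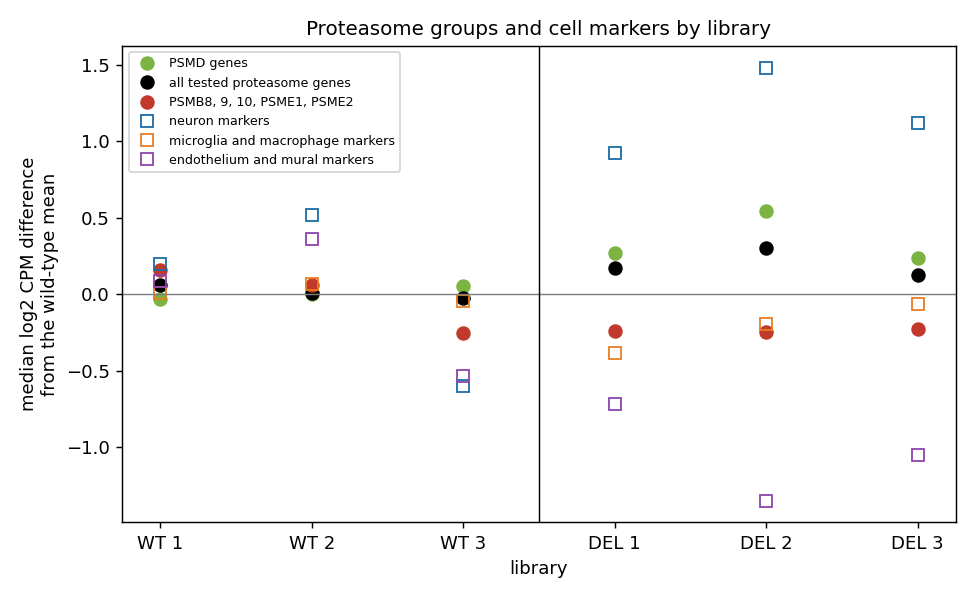
Median log2 CPM difference from the wild-type mean in each library, for groups of proteasome genes (filled circles) and for cell type markers (open squares), with wild type (WT) to the left and maternal deletion (DEL) to the right of the vertical line. The PSMD genes reach 0.54 in deletion replicate 2, where neuron markers reach 1.48, and the 5 interferon-inducible subunits lie between -0.26 and -0.23 in wild-type replicate 3 and the deletion libraries.

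Whether the summed proteasome RNA separated the groups depended on the scale. The tested members together took 2900, 2806 and 2800 CPM of the wild-type libraries, beside 3236, 3569 and 3213 CPM of the deletion libraries, without overlap. As a share of all exon reads, with no scaling, all members took 0.288, 0.304 and 0.287% in wild type and 0.304, 0.335 and 0.331% in the deletion group, where wild-type replicate 2 and deletion replicate 1 met. In TPM the sums were 3473, 3647 and 4121 in wild type and 4014, 4249 and 4186 in the deletion group, which overlapped through wild-type replicate 3.

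Genes that work next to the proteasome were examined as lists. Of 13 tested genes for enzymes and modulators bound to the proteasome, none passed the edgeR quasi-likelihood threshold, 6 were higher and 1 was lower at an unadjusted p under 0.05 (11.1% and 9.09% of all genes), and the median log2 fold change was 0.34. ECPAS, which tethers the core to the regulatory particle, stood at 55.2, 64.5 and 57.5 CPM in wild type and at 74.1, 109.7 and 82.4 CPM in the deletion group. ECPAS thus had a log2 fold change of 0.59 (SE 0.16; edgeR adjusted p 0.110). UCHL5, the deubiquitinase that ADRM1 anchors, gave 0.44 and PITHD1 gave 0.58, both without overlap. DYRK2, a kinase that phosphorylates PSMC4, was at 19.2, 23.9 and 15.2 CPM and then at 10.8, 11.7 and 13.5 CPM, with a log2 fold change of -0.69 (SE 0.19; edgeR adjusted p 0.106). DESeq2 called 1 gene of this list higher and 1 lower (3.6% and 5.04% of all genes), and voom called none.

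All 16 tested genes of ubiquitin shuttles and of cofactors of the segregase p97 were positive, with a median of 0.20, 9 of them higher without overlap (15.2% of all genes) and 4 higher at an unadjusted p under 0.05 (11.1% of all genes). FAF1, NSFL1C, UBQLN1 and RAD23B gave 0.42, 0.36, 0.36 and 0.29, and none of the 16 passed by edgeR, DESeq2 or voom. The ubiquitin and E1 genes had a median of 0.06 over 7 genes. Among them the ubiquitin gene UBB stood at 858.3 to 1051 CPM in wild type and 918.0 to 1078 CPM in the deletion group. UBA1, the main E1 for ubiquitin, gave 0.21, and UBA3, an E1 subunit for a ubiquitin-like protein, gave 0.12. RPS27A, a ubiquitin fusion with a ribosomal protein, gave -0.33.

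Genes of the transcription route that raises proteasome genes together lay on both sides of 0. The list around NFE2L1, the factor known for inducing proteasome genes when proteasome activity is short, had a median of -0.08 over 10 genes, with 4 positive and 6 negative and no member at an unadjusted p under 0.05 by edgeR or DESeq2, and 1 by voom. NFE2L1 itself, named although outside the naming rule, read 355.5, 314.5 and 336.3 CPM in wild type and 361.3, 386.6 and 362.4 CPM in the deletion group, without overlap (log2 fold change 0.14, SE 0.12; edgeR adjusted p 0.601). In this list 2 genes were higher without overlap and 4 lower, where 15.2% and 11.2% of all genes were. VCP, the segregase that frees NFE2L1 from the membrane, gave 0.27. NFE2L2, NFYA and NFYB, further transcription factors, gave -0.15, -0.16 and -0.23, each without overlap.

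Partners of the immunoproteasome in antigen presentation were on the negative side, with 12 of 15 negative and a median of -0.19. B2M, the light chain of MHC class I, stood at 708.2, 749.3 and 577.9 CPM in wild type and at 463.9, 600.4 and 569.8 CPM in the deletion group. IRF1, a transcription factor that induces PSMB8, PSMB9 and PSME genes, stood at 57.7, 24.96 and 19.0 CPM and then at 19.0, 17.3 and 21.0 CPM. Its log2 fold change was -0.82 (SE 0.38), and -0.26 among the animals of prefix 15, which leaves out replicate 1 of both groups. Wild-type replicate 1 was the highest library for IRF1, PSMB9 and PSMB10. PSMB8 was highest in deletion replicate 2, and PSME1 and PSME2 in wild-type replicate 2. Whether IRF1 and these genes are linked here was not tested. TAPBPL and IFNGR2 gave -0.32 and -0.36. None of the 15 passed by edgeR, DESeq2 or voom, and 2 were lower at an unadjusted p under 0.05 by edgeR, where 9.09% of all genes were. PSMB8 and PSMB9 flank TAP1, and PSME1 and PSME2 lie on either side of a single gene, by the gene order of RefSeq's Sscrofa11.1 annotation. Whether counting used strand is not stated, and 12 of the 45 members overlap another gene there, PSME1, PSMD1 and PSMD14 among them.

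Other large protein machines were set beside the proteasome to show how far its values stand out. The 7 tested subunits of the chaperonin CCT had a median log2 fold change of 0.26 and all were positive, 6 of them higher without overlap, where 15.2% of all genes were. The 10 subunits of the COP9 signalosome, which is built like the lid, had a median of 0.21 with 9 positive and 4 higher without overlap. CCT8 gave 0.44, CCT4 0.37, TCP1 0.33 and CCT3 0.26, and COPS8, COPS5, COPS4 and COPS7A gave 0.58, 0.34, 0.30 and 0.28. The median of the tested proteasome genes, 0.19, was no larger than that of either list, and no list was tested against another. None of the CCT genes passed by edgeR, DESeq2 or voom, and DESeq2 called 1 COP9 gene higher, where it called 3.6% of all genes higher.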

How the data were processed

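For each gene and library the deposited tables hold a whole-number count of exon reads (blank for none), an RPKM, a TPM and a signal column headed CPM, per the file headers. The library sums of that CPM column, 917605 to 1075791, show a further scaling by the authors. A comparison table by the authors holds signed fold changes (a score), each with its p-value and false discovery rate. The aligner, counter, annotation and genome build: not given in the sources used here. Levels per length are the deposited TPM. The RPKM and scaled CPM columns entered no result.

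After filterByExpr and TMM scaling, counts were tested in R 4.3.3 by the robust quasi-likelihood fit of edgeR 4.0.16, without covariates, with Benjamini-Hochberg adjustment over 14566 genes at 0.05. CPM are TMM-scaled, and log2 CPM used a prior count of 2. Standard errors come from the quasi-likelihood statistic. Alternatives used DESeq2 1.42.0, voom of limma 3.58.1, other scalings and filters, the animal ID prefix, a neuron covariate and leaving out libraries. The fits were tested on simulated data. Replicate numbers follow accession order and pair nothing, and nothing in the labels goes beyond separate animals. In every pair, libraries differed by more than sampling noise (chi-square per degree of freedom at least 28.1). Pairs of deletion libraries gave 28.1 to 32.3 and pairs across genotypes 58.3 to 119.7. Pairs of wild-type libraries gave 32.6 to 123.8, the largest value being between wild-type replicates 2 and 3. Members and lists were chosen with earlier results of these data known. Every member could be named, and of each list of other genes the 4 with the smallest p. Counting errors and floors cover counting error only.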

Additional observations from a re-analysis of the deposited data

How the results depend on the processing

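Of the 43 tested members, 27 kept the sign of their log2 fold change under all 16 alternatives and 16 changed it under at least 1, none of those past the threshold. The count of proteasome genes changed in maternal deletion, higher, was 0 except by DESeq2 (2) and voom (1); the count lower was 0 to 1 when each library was left out, the 1 being PSME2 without wild-type replicate 3. The median log2 fold change of the members was 0.0920 under total-count scaling, 0.1060 under upper-quartile scaling and 0.0922 with the neuron covariate, and 0.1385 to 0.2281 when each library was left out. Genes changed over the whole table, 26 higher and 123 lower, numbered 9 higher under RLE, 6 higher under total-count scaling, 77 higher with no filter, 48 higher with the neuron covariate, 565 higher and 792 lower by DESeq2, 94 higher and 344 lower by voom, 0 higher and 3 lower with the ID prefix as a block, and 0 and 0 within prefix 15, where 1608 genes had an unadjusted p under 0.05; leaving out a library gave 0 to 120 higher and 0 to 639 lower, the most without wild-type replicate 3. UBE3A gave -1.39 with the block (edgeR quasi-likelihood adjusted p 0.0526) and -1.44 within prefix 15 (0.358), and -1.51 to -1.33 when each library was left out (0.00514 to 0.152). The cause of these shifts was not tested.

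Signs that changed, by setting, were as follows. RLE gave PSME4 -0.0335 and PSMB2 -0.0069. Total-count scaling gave PSMC3 -0.0069, PSME4 -0.0915, PSMB2 -0.0556 and PSMD11 -0.0158. Upper-quartile scaling gave PSME4 -0.0743, PSMB2 -0.0443 and PSMD11 -0.0010. No filter gave PSMG4 0.0073. DESeq2 gave PSME4 -0.0307 and PSMB2 -0.0025. Prefix 15 alone gave PSME4 -0.0940, PSMD7 -0.0395, PSMG4 0.0105, PSMB8 0.0068, PAAF1 0.30 and PSMD11 -0.0730. The neuron covariate gave PSMB1 -0.0255, PSMC3 -0.0586, PSMG3 -0.27, PSMB4 -0.0643, PSMG2 -0.26, POMP -0.0455, PSMC5 -0.0012, PSMB3 -0.19 and ADRM1 -0.13. Leaving out a library gave ranges of -0.0920 to 0.0646 for PSME4, -0.17 to 0.0533 for PSMG4, -0.0167 to 0.19 for PSMD11, -0.0391 to 0.0871 for PSMB2, -0.0374 to 0.16 for PSMC3, -0.0067 to 0.23 for PSMG3, -0.0183 to 0.26 for ADRM1 and -0.32 to 0.28 for PAAF1.

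No paired analysis was possible because the groups share no replicate numbers in the labels; the ID prefix, which both genotypes share and the labels do not explain, was used as the block above. With 3 animals per group, an adjusted p above 0.05 does not show that a gene was level: the 95% interval of PSMA7, for example, ran from -0.17 to 0.43.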
